A study of Danio rerio with 12 samples.

Results

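ddx4, dazl and nanos3 are RNA regulators of the germ line, the cells that give rise to eggs and sperm. They were taken by their Ensembl gene IDs, ENSDARG00000014373, ENSDARG00000036214 and ENSDARG00000068255, as 3 of the 32520 genes in the count table, and all 3 were among the 19292 genes with enough counts to be tested. The counts came from polyadenylated RNA of 12 single juvenile zebrafish gonads that were sexed under the microscope. At 25 days post fertilization (dpf) there were 2 ovaries and 4 testes, and at 30 dpf 3 of each sex. All the fish were of strain AB and carried the transgene Tg(piwil1-egfp-nos3UTR)ihb327Tg, in which the piwil1 promoter drives a green fluorescent protein in germ cells, so no group was without it. The amplified cDNA of each gonad was made from whole tissue, which holds germ cells, supporting cells, steroid-making cells and stroma together.

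Germ cells depend on proteins that decide when a messenger RNA is stored, translated or destroyed. Ddx4, also called Vasa, is a DEAD-box RNA helicase of the nuage, the perinuclear granules in which piRNAs are made, and it is the usual marker of germ cells at all stages in zebrafish. Dazl binds messenger RNAs through their untranslated regions and promotes their translation, partly through poly(A)-binding proteins. Nanos proteins are zinc-finger repressors that work with Pumilio proteins and recruit the CCR4-NOT deadenylase, which shortens poly(A) tails. In zebrafish nanos3 is deposited maternally in the germ plasm and is required in females to keep producing oocytes.

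The total count per gonad was 4471588 to 5331223. Among the testes 4 libraries stood apart by marker genes. In 25 dpf testis 1 the 3 muscle genes, led by actc1b, summed to 18100 CPM (counts per 1000000 counts of the library, after scaling with the trimmed mean of M-values, TMM), against 41.1 to 778.7 elsewhere. In 25 dpf testis 2 the 5 gut, liver and pancreas genes, among them apoa2 and fabp2, summed to 5773 CPM, against 37.4 to 1527 elsewhere. In 30 dpf testes 2 and 3 the 3 blood genes summed to 976.9 and 503.2 CPM, against 35.5 to 152.3 elsewhere, and the 6 supporting-cell genes to 4713 and 6667 CPM, against 410.3 to 1519 elsewhere.

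All 3 genes were higher in juvenile ovaries than in juvenile testes when both ages were averaged. nanos3 was 5.80-fold higher, ddx4 1.88-fold higher and dazl 1.58-fold higher. The same call was made for 21.9% of all genes tested, so a call in this direction was common in these gonads. At 25 dpf 2 of the 3 genes were called higher in ovaries, beside 8.64% of all genes, and dazl was not. At 30 dpf all 3 were, beside 18.7% of all genes. None of the 3 passed the test between 25 and 30 dpf in either sex.

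In the 25 dpf ovaries ddx4 stood at 473.8 and 599.3 CPM, and in the 30 dpf ovaries at 777.5, 569.9 and 808.6 CPM. In the 25 dpf testes it stood at 336.4, 344.6, 276.7 and 329.0 CPM, and in the 30 dpf testes at 285.5, 320.3 and 408.3 CPM. Every ovary lay above every testis, with the gap running from the 30 dpf testis at 408.3 CPM to the 25 dpf ovary at 473.8 CPM. The group means were 536.5 ± 88.7 CPM in 25 dpf ovaries (SD, n = 2), 718.7 ± 129.7 in 30 dpf ovaries (SD, n = 3), 321.7 ± 30.6 in 25 dpf testes (SD, n = 4) and 338.0 ± 63.3 in 30 dpf testes (SD, n = 3). In order of level the 30 dpf ovaries came first, then the 25 dpf ovaries, then the 30 dpf and 25 dpf testes, and the neighbours of the same sex overlapped.

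The log2 fold change of ddx4 between ovaries and testes was 0.91 over both ages (SE 0.134, 95% confidence interval 0.619 to 1.21, edgeR quasi-likelihood test, Benjamini-Hochberg adjusted p = 0.00037). It was 0.74 at 25 dpf (SE 0.193, adjusted p = 0.0301) and 1.09 at 30 dpf (SE 0.189, adjusted p = 0.00152). The call at 25 dpf was lost without 25 dpf ovary 2 (log2 fold change 0.60, adjusted p = 0.243), a fit in which 1 ovary of that age remained and was assumed to vary like the other groups, and without 25 dpf testis 3 (0.70, adjusted p = 0.0571).

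dazl had the smallest fold change of the 3 genes over both ages. In the 25 dpf ovaries it stood at 397.3 and 369.1 CPM, and in the 30 dpf ovaries at 578.8, 455.5 and 334.7 CPM. In the 25 dpf testes it stood at 308.4, 337.9, 266.0 and 234.5 CPM, and in the 30 dpf testes at 244.3, 192.5 and 295.7 CPM. Within each age every ovary lay above every testis, but over both ages 30 dpf ovary 3, at 334.7 CPM, lay just below 25 dpf testis 2, at 337.9 CPM. The group means were 383.2 ± 19.9 CPM in 25 dpf ovaries (SD, n = 2), 456.4 ± 122 in 30 dpf ovaries (SD, n = 3), 286.7 ± 45.6 in 25 dpf testes (SD, n = 4) and 244.2 ± 51.6 in 30 dpf testes (SD, n = 3). The order of the groups was the same as for ddx4 except that the 25 dpf testes stood above the 30 dpf testes, and again neighbours of the same sex overlapped.

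The log2 fold change of dazl between ovaries and testes was 0.66 over both ages (SE 0.162, 95% confidence interval 0.306 to 1.01, edgeR adjusted p = 0.00707). At 30 dpf it was 0.90 (SE 0.226, adjusted p = 0.0104). At 25 dpf the difference of 0.42 did not pass the threshold (SE 0.234, adjusted p = 0.242), and its interval ran from -0.09 to 0.93, so that neither no difference nor a nearly 2-fold one was excluded at this number of gonads.

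nanos3 had the fewest counts of the 3 genes and the widest separation of the sexes. In the 25 dpf ovaries nanos3 stood at 27.5 and 38.0 CPM, from 139 and 186 counts. In the 30 dpf ovaries it stood at 93.6, 75.1 and 44.0 CPM, from 348, 287 and 190 counts. In the 25 dpf testes it stood at 7.17, 6.86, 11.2 and 12.2 CPM, from 33, 39, 59 and 68 counts, and in the 30 dpf testes at 3.82, 12.6 and 5.65 CPM, from 19, 61 and 28 counts. The highest testis lay below the lowest ovary, and their 95% exact Poisson intervals did not meet, ending at 16.1 CPM for that testis and beginning at 23.1 CPM for that ovary. These intervals cover counting error only. The lowest count of 19 allowed 2.3 to 5.96 CPM, above the floor of 0.602 CPM that 3 counts would give in that gonad. Reads counted at nanos3 were thus detected in every testis, and whether some came from the transgene cannot be told from gene counts.

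**Figure D1:**
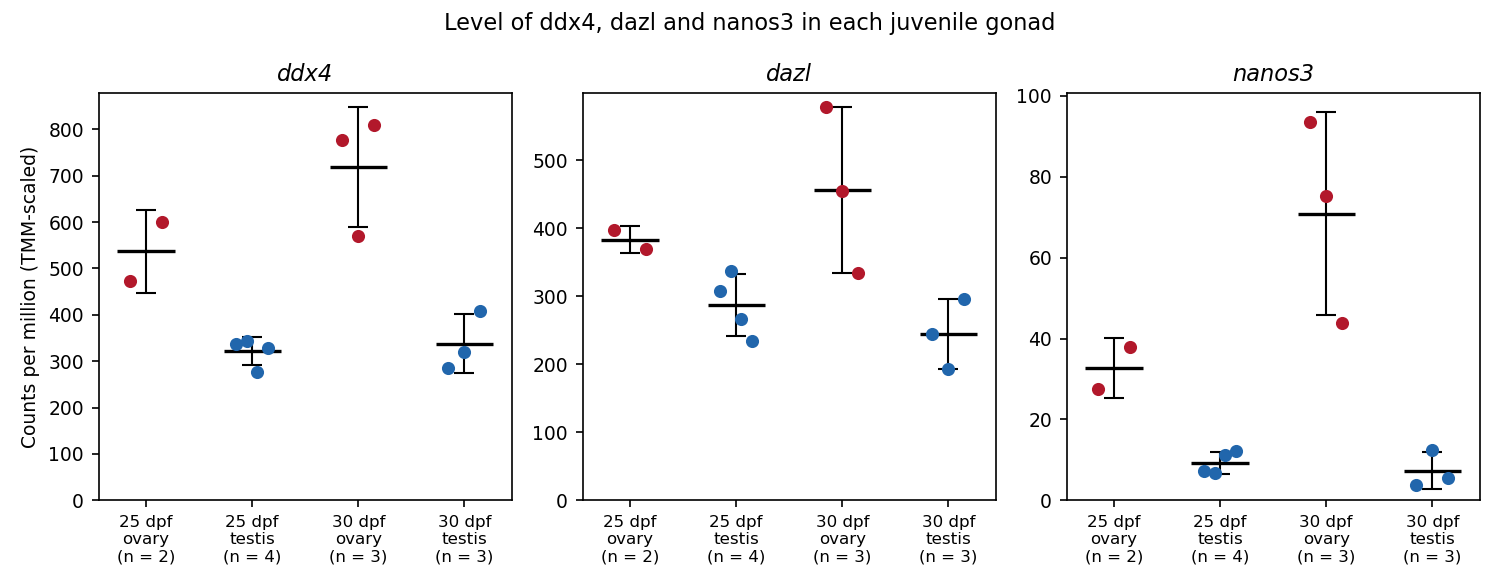
Level of ddx4, dazl and nanos3 in TMM-scaled CPM (vertical axes, linear and starting at 0) in each gonad (points, red for ovaries and blue for testes) by group, with the group mean (bar) and SD (whiskers). ddx4 and nanos3 show no overlap of the sexes, while for dazl the lowest ovary at 334.7 CPM lies just under the highest testis at 337.9 CPM.

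The mean level of nanos3 was 32.7 ± 7.40 CPM in 25 dpf ovaries (SD, n = 2), 70.9 ± 25.1 in 30 dpf ovaries (SD, n = 3), 9.35 ± 2.73 in 25 dpf testes (SD, n = 4) and 7.35 ± 4.62 in 30 dpf testes (SD, n = 3). All 3 of the 30 dpf ovaries were above both 25 dpf ovaries, whereas the testes of both ages overlapped. The share of all genes that separate the ages in this way was not computed, and nanos3 was not called between the ages. The log2 fold change between ovaries and testes was 2.54 over both ages (SE 0.313, 95% confidence interval 1.85 to 3.22, edgeR adjusted p = 0.000133). It was 1.80 at 25 dpf (SE 0.433, adjusted p = 0.0223), a 3.49-fold difference, and 3.27 at 30 dpf (SE 0.460, adjusted p = 0.000525), a 9.63-fold difference. Without 25 dpf ovary 2, which leaves 1 ovary of that age, it was 1.6 at 25 dpf (adjusted p = 0.168). At 30 dpf it was 2.95 to 3.92 with 1 gonad left out, the highest without 30 dpf testis 2, whose nanos3 was the highest of the testes.

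Beside these counts stand those of all genes. Every ovary lay above every testis for 12.2% of the genes tested over the 12 gonads, which ddx4 and nanos3 share and dazl does not. The corresponding shares were 21.3% within 25 dpf and 25.1% within 30 dpf, where all 3 genes were among them. The median log2 fold change of all genes over both ages was -0.13, and ddx4, dazl and nanos3 lay at the 84.2, 78.3 and 96.7 percentiles of that distribution. Because the tissue was measured in bulk, fewer germ cells in a gonad and less of a transcript in each germ cell cannot be told apart.

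In ovaries nanos3 was 2.17-fold higher at 30 than at 25 dpf, with a log2 fold change of 1.11 (SE 0.481, 95% confidence interval 0.062 to 2.17). Its unadjusted p was 0.0398 and its edgeR adjusted p 0.417. The same comparison gave 0.42 for ddx4 (95% confidence interval -0.04 to 0.88, adjusted p = 0.472) and 0.25 for dazl (-0.30 to 0.80, adjusted p = 0.744). edgeR called 0% of the genes tested in this comparison, while 2215 had an unadjusted p under 0.05 and DESeq2 called 128.

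In testes the log2 fold changes from 25 to 30 dpf were 0.07 for ddx4, -0.23 for dazl and -0.35 for nanos3, with edgeR adjusted p of 0.913, 0.701 and 0.787. In this comparison 0.00518% of all genes, 1 gene, were called. The interval for nanos3 ran from -1.26 to 0.56.

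Whether the sex difference itself changed with age was tested as an interaction. The ovary excess of nanos3 was larger at 30 than at 25 dpf by 1.46 on the log2 scale (SE 0.633, 95% confidence interval 0.0774 to 2.85), with an unadjusted p of 0.0402 and an edgeR adjusted p of 0.471, and it was not called. Without 30 dpf testis 2 it was 2.08 (adjusted p = 0.421), and over all fits with 1 gonad left out 1.15 to 2.08. The interaction was 0.35 for ddx4 (adjusted p = 0.689) and 0.48 for dazl (adjusted p = 0.640). edgeR called 0% of genes for this interaction, while 1952 had an unadjusted p under 0.05 and DESeq2 called 71. A difference called at 30 dpf and not at 25 dpf, as for dazl, was thus not shown to differ between the ages.

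The 3 genes can also be set against each other within a gonad, where library size and scaling cancel. These ratios are of counts, are not corrected for transcript length and say nothing of which gene is more abundant per molecule. For every 100 ddx4 counts there were 83.9 and 61.6 dazl counts in the 25 dpf ovaries and 74.5, 79.9 and 41.4 in the 30 dpf ovaries. There were 91.7, 98.1, 96.1 and 71.3 in the 25 dpf testes and 85.6, 60.1 and 72.4 in the 30 dpf testes. The sexes overlapped, and the log2 difference between ovaries and testes was -0.25. It did not pass the threshold (two-sided exact permutation test of sex within age, p = 0.217, adjusted over 6 ratio tests 0.407).

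nanos3 stood apart from ddx4 by sex. For every 100 ddx4 counts there were 5.80 and 6.33 nanos3 counts in the 25 dpf ovaries and 12.03, 13.2 and 5.44 in the 30 dpf ovaries. There were 2.13, 1.99, 4.03 and 3.71 in the 25 dpf testes and 1.34, 3.93 and 1.38 in the 30 dpf testes. No testis reached the lowest ovary. How many other genes separate the sexes in such ratios was not counted. The ratio was 3.21-fold higher in ovaries (log2 difference 1.68, two-sided exact permutation test, p = 0.00667, adjusted p = 0.02, where the smallest p possible was 0.00333).

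The ratio of nanos3 to dazl gave the same order. For every 100 dazl counts there were 6.92 and 10.3 nanos3 counts in the 25 dpf ovaries and 16.2, 16.5 and 13.1 in the 30 dpf ovaries, against 2.32, 2.03, 4.2 and 5.2 in the 25 dpf testes and 1.56, 6.53 and 1.91 in the 30 dpf testes. The lowest ovary, at 6.92, was just above the highest testis, at 6.53. The ratio was 3.82-fold higher in ovaries (log2 difference 1.93, two-sided exact permutation test, p = 0.00667, adjusted p = 0.02). Within 1 age these tests have too few gonads to pass the threshold, and the log2 difference of the nanos3 to ddx4 ratio was 1.09 at 25 dpf and 2.28 at 30 dpf.

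**Figure D2:**
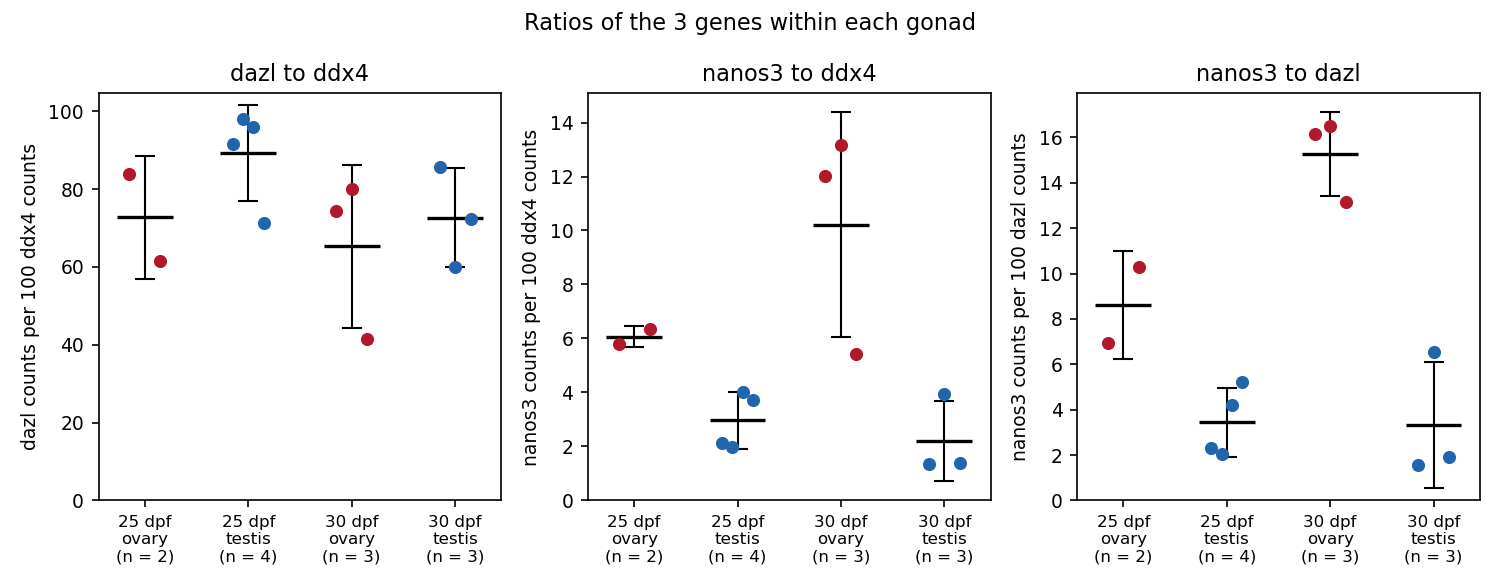
Count ratios within each gonad (points, red for ovaries and blue for testes), as counts of the first gene per 100 counts of the second (vertical axes, linear and starting at 0), with group mean (bar) and SD (whiskers). The dazl to ddx4 ratio overlaps between the sexes, while both nanos3 ratios are higher in every ovary than in every testis.

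None of the 3 ratios passed the test between ages, whose statistic averaged the age differences of both sexes. The averaged log2 differences from 25 to 30 dpf were -0.25 for dazl to ddx4 (two-sided exact permutation test of age within sex, adjusted p = 0.407), 0.06 for nanos3 to ddx4 (adjusted p = 0.903) and 0.31 for nanos3 to dazl (adjusted p = 0.545). For both nanos3 ratios the average joined opposite directions. The nanos3 to ddx4 ratio differed by 0.65 in ovaries alone and by -0.534 in testes alone. For nanos3 to dazl these differences were 0.847 and -0.235.

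The transgene's label names a nos3UTR element. If that element carries sequence of the nanos3 gene, transgene reads would be counted at nanos3 and cannot be told apart in gene counts. The transgene is driven by the piwil1 promoter, and piwil1, a Piwi protein that binds piRNAs, was 2.05-fold higher in ovaries over both ages (log2 fold change 1.03, SE 0.0809, edgeR adjusted p = 2.97e-05), against 5.80-fold for nanos3. For every 100 piwil1 counts the ovaries held 1.47, 2.02, 3.25, 3 and 1.56 nanos3 counts, and the testes 0.608, 0.605, 1.05, 0.973, 0.367, 1.22 and 0.512. The sexes did not overlap in this ratio, for which no share over all genes was computed. RNA of the transgene could not be measured, and its part in the sex difference of nanos3 was not tested.

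nanos1, a member of the same zinc-finger family as nanos3, went in the opposite direction. It stood at 169.3 and 115.3 CPM in the 25 dpf ovaries and 108.3, 139.3 and 162.0 in the 30 dpf ovaries. It stood at 396.5, 517.4, 352.8 and 293.5 CPM in the 25 dpf testes and 525.4, 173.5 and 148.6 in the 30 dpf testes. All but 1 of the testes were above every ovary, the exception being 30 dpf testis 3. nanos1 was 2.38-fold higher in testes over both ages (log2 fold change -1.25, SE 0.318, edgeR adjusted p = 0.0085) and was called at neither age alone (adjusted p = 0.0639 at 25 dpf and 0.0738 at 30 dpf).

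nanos2, which in mice maintains male germline stem cells, was close to the limit of detection. It had 9 and 3 counts in the 25 dpf ovaries and 0, 3 and 4 in the 30 dpf ovaries, and 16, 30, 6 and 9 counts in the 25 dpf testes and 5, 12 and 20 in the 30 dpf testes. Its log2 fold change of -1.65 did not pass the threshold (SE 0.670, edgeR adjusted p = 0.0651). At these depths its direction is not resolved.

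The DEAD-box helicases ddx3xa and ddx3xb, relatives of ddx4 that are used in most cells, were higher in ovaries over both ages. ddx3xa ranged from 193.2 to 426.1 CPM in ovaries (median 320.6) and from 140.9 to 198.2 in testes (median 177.6), a log2 fold change of 0.70 (SE 0.133, edgeR adjusted p = 0.00176). ddx3xb ranged from 181.3 to 302.7 CPM in ovaries (median 263.9) and from 149.8 to 205.6 in testes (median 183.4), a log2 fold change of 0.41 (SE 0.119, adjusted p = 0.0158). Both were called at 30 dpf and neither at 25 dpf.

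**Figure D3:**
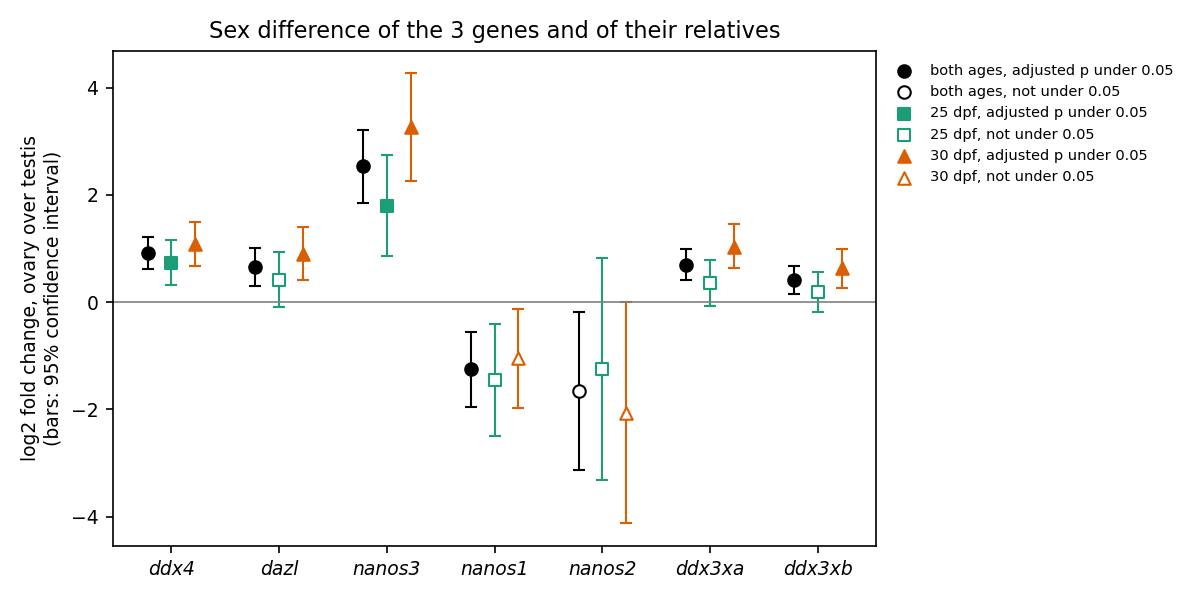
log2 fold change of ovary over testis (vertical axis) for ddx4, dazl, nanos3 and their relatives over both ages (circles), at 25 dpf (squares) and at 30 dpf (triangles), with 95% confidence intervals and filled symbols where the edgeR adjusted p was under 0.05. nanos3 lies at 2.54 over both ages and nanos1 at -1.25, on opposite sides of 0.

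Genes with functions related to those of the 3 regulators were read in groups. Not every gene of a group is known to work with these regulators. Among 9 germ plasm and primordial germ cell genes all 9 rose in ovaries over both ages, with a median log2 fold change of 1.61, beside -0.13 for all genes. Over both ages 21.9% of all genes were called higher in ovaries and 21.3% higher in testes, against which this count and those of the other groups stand. ca15b, a carbonic anhydrase gene whose RNA marks germ plasm, ranged from 251.3 to 1207 CPM in ovaries and from 0.606 to 71.3 in testes, a log2 fold change of 4.76 (SE 1.08, edgeR adjusted p = 0.00461). buc, which encodes Bucky ball, the organizer of the Balbiani body in oocytes, ranged from 922.1 to 2179 CPM in ovaries and from 82.4 to 323.8 in testes, a log2 fold change of 3.06 (SE 0.305, adjusted p = 5.13e-05). For both genes every ovary was above every testis.

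Of 14 matched genes of the nuage and the piRNA pathway, in which Ddx4 works, 11 rose in ovaries, none rose in testes, and tdrd3, tdrkh and prmt5 did not pass the test. Their median log2 fold change was 0.98. tdrd1, a Tudor scaffold of the nuage, had the largest fold change, 3.85 (SE 1.35, edgeR adjusted p = 0.0379), but its gonads fell far apart. It stood at 504.5 and 7.55 CPM in the 25 dpf ovaries and 881.5, 261.0 and 8.33 in the 30 dpf ovaries, while among the testes 30 dpf testis 1 held 362.8 CPM and the others 2.87 to 5.81. ddx4 itself showed no such split. asz1, an ankyrin-repeat protein of the same granules, was 3.08-fold higher in ovaries (log2 fold change 1.62, SE 0.373, adjusted p = 0.00502), with ovaries at 13.8 to 41.0 CPM and testes at 3.92 to 15.3 CPM.

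The 14 genes of the group chosen for poly(A) binding and cytoplasmic translation, functions related to that of Dazl, were split. In all, 8 rose in ovaries, 2 rose in testes and 4 were not called, with a median log2 fold change of 1.47. zar1, an oocyte RNA-binding protein that in zebrafish binds zona pellucida messages, ranged from 1302 to 3152 CPM in ovaries and from 31.9 to 393.3 in testes (log2 fold change 3.97, SE 0.639, edgeR adjusted p = 0.000632). cpeb1b, a cytoplasmic polyadenylation factor, ranged from 565.8 to 2675 CPM in ovaries and from 42.8 to 188.9 in testes (log2 fold change 3.63, SE 0.388, adjusted p = 6.52e-05). In the other direction pabpc1b, a poly(A)-binding protein, ranged from 144.8 to 212.6 CPM in ovaries and from 350.6 to 574.8 in testes (log2 fold change -1.39, SE 0.148, adjusted p = 6.32e-05), and its paralogue pabpc1a differed by -0.22 (SE 0.0799, adjusted p = 0.0475).

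Of 16 matched Pumilio, CCR4-NOT and Tob genes, the machinery through which Nanos proteins act, 7 rose in ovaries, 1 rose in testes and 8 were not called, with a median of 0.41. cnot10, a subunit of CCR4-NOT, ranged from 55.0 to 144.6 CPM in ovaries and from 35.7 to 51.0 in testes (log2 fold change 1.00, SE 0.154, edgeR adjusted p = 0.000487). tob1b, an adaptor of the deadenylase, was 1.75-fold higher in ovaries (log2 fold change 0.81, SE 0.224, adjusted p = 0.0133). pum2, 1 of the Pumilio repressors, went the other way, at 9.95 to 12.4 CPM in ovaries and 15.5 to 33.7 in testes (log2 fold change -1.16, SE 0.216, adjusted p = 0.00151).

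Markers of germ cell stages were read beside the 3 regulators. The 6 early germ cell genes had a median log2 fold change of 0.09, and 3 were not called, nanos2 (-1.65) among them. The 3 called were all higher in ovaries. They were zbtb16a (log2 fold change 2.53, SE 0.375, edgeR adjusted p = 0.000382), dnd1 (1.61, SE 0.181, adjusted p = 8.19e-05), which protects germ cell messages and also counts in the germ plasm group, and tert. Of 13 matched meiotic genes only spo11, which makes the meiotic double-strand breaks, was called, and it was higher in ovaries (0.96, SE 0.236, adjusted p = 0.00737). DESeq2 and upper-quartile factors each called 1 meiotic gene higher in testes besides. The median of the meiotic genes was -0.37, and their summed level overlapped between the sexes, at 342.8 to 842.0 CPM in ovaries and 578.8 to 907.2 in testes.

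**Figure D4:**
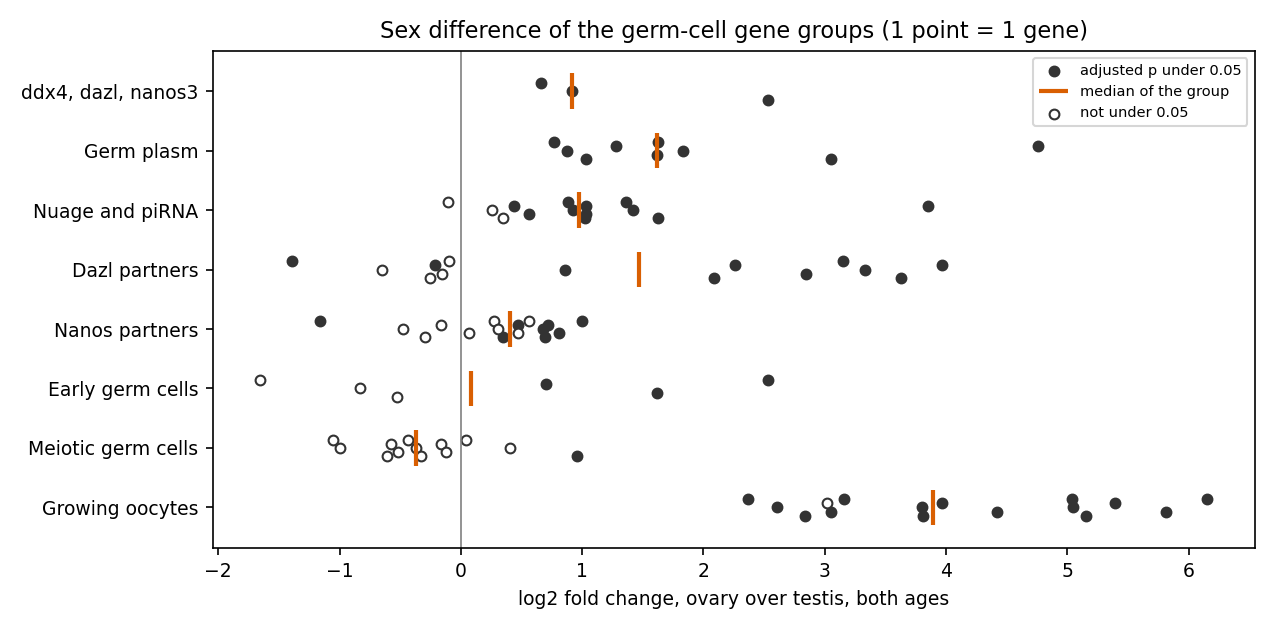
log2 fold change of ovary over testis over both ages (horizontal axis) for each tested gene (points) of the germ-cell gene groups (rows), filled where the edgeR adjusted p was under 0.05, with the median of each group (orange line). The growing-oocyte genes have the highest median, 3.89, and the meiotic genes the lowest, -0.37. Rows labelled as partners are groups chosen by function.

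Growing-oocyte genes had the highest median of the groups read here, with 15 of 16 matched genes called higher in ovaries and a median log2 fold change of 3.89. buc, of the germ plasm group, and zar1, of the poly(A)-binding and translation group, also count in this group. The egg-coat genes zp2.3 and zp2.1 led them, at 6.15 (SE 0.857, edgeR adjusted p = 0.000268) and 5.82 (SE 0.801, adjusted p = 0.000252). The summed level of the group was 7779 and 10010 CPM in the 25 dpf ovaries and 18800, 21320 and 13850 in the 30 dpf ovaries. It was 538.8, 363.4, 1067 and 1908 CPM in the 25 dpf testes and 381.1, 1710 and 399.0 in the 30 dpf testes. The sum was above 0 in every testis, but its leading genes were not detected in all of them, with zp2.1 at 0 counts in 25 dpf testis 1 and zp2.3 at 1 count there, under the floor of 3 counts.

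nanos3 and the oocyte genes ran in nearly the same order. The 3 testes with the highest nanos3, 30 dpf testis 2 at 12.6 CPM and 25 dpf testes 4 and 3 at 12.2 and 11.2 CPM, were the 3 with the highest oocyte sum. The 4 others held 3.82 to 7.17 CPM of nanos3. Counting error alone leaves this ranking uncertain. The 95% exact Poisson interval of 25 dpf testis 3, 8.5 to 14.4 CPM, overlapped those of 2 lower testes. These were 25 dpf testis 1, at 4.93 to 10.1 CPM, and 25 dpf testis 2, at 4.88 to 9.38 CPM. The share of all genes that follow the oocyte sum in this way was not computed. In the ovaries the 2 with the highest nanos3, 30 dpf ovaries 1 and 2, were likewise those with the highest oocyte sum. Per 1000 CPM of oocyte genes the ovaries held 3.18 to 4.98 CPM of nanos3 and the testes 6.39 to 18.9. ddx4 stood at 26.7 to 60.9 in ovaries and 172 to 1020 in testes on this scale. For dazl the ranges were 21.4 to 51.1 and 113 to 930. The oocyte sum differed more by sex than each of these genes, so the direction was the same for all of them. The part of the oocyte genes in the sex difference of nanos3 was not tested.

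In the ovaries dazl, too, was highest in 30 dpf ovaries 1 and 2, whereas ddx4 was highest in 30 dpf ovaries 3 and 1. Among the testes the order of ddx4 and dazl differed from that of the oocyte genes. The testis with the highest ddx4, 30 dpf testis 3 at 408.3 CPM, ranked 5 of 7 in oocyte sum, the testis with the highest dazl, 25 dpf testis 2, had the lowest oocyte sum, and the testis with the lowest dazl, 30 dpf testis 2, ranked 2 of 7.

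**Figure D5:**
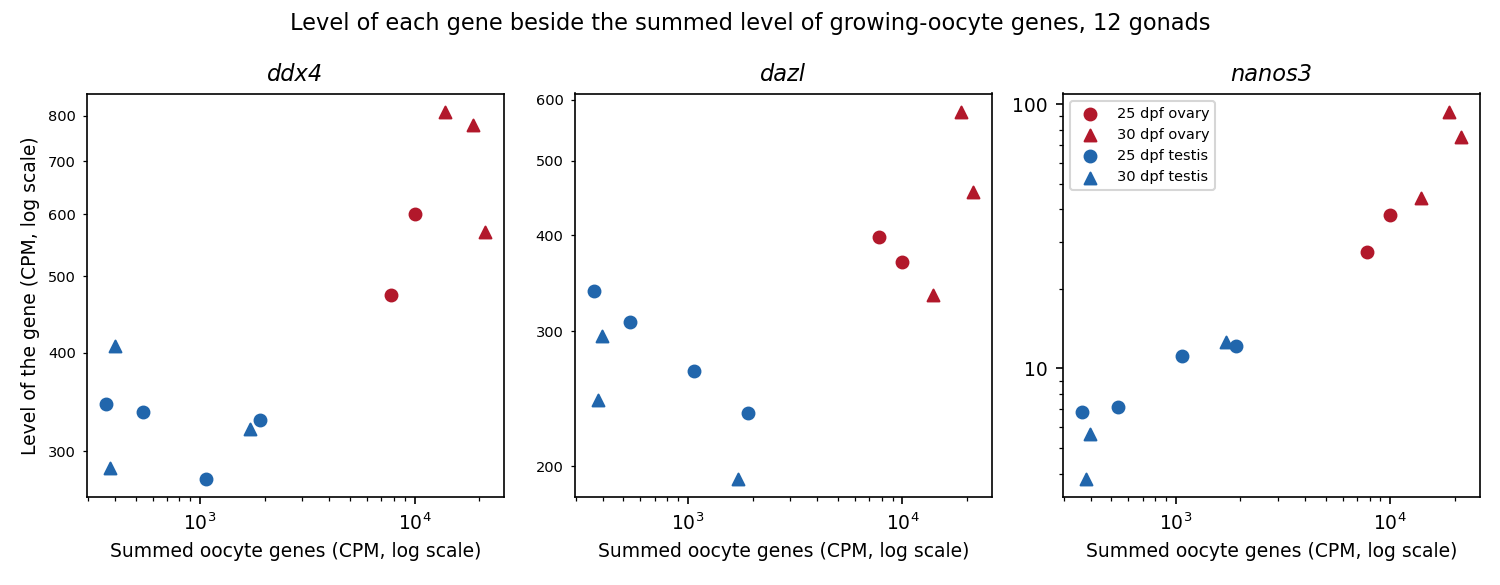
Level of ddx4, dazl and nanos3 (vertical log axes, CPM) against the summed level of 16 growing-oocyte genes (horizontal log axes, CPM) in the 12 gonads (points, red for ovaries, blue for testes, circles at 25 dpf, triangles at 30 dpf). The 3 testes with an oocyte sum of 1067 to 1908 CPM have the highest nanos3 of all testes, from 11.2 to 12.6 CPM. These levels rest on 59 to 68 counts. The same testes do not have the highest ddx4. For dazl, 25 dpf testis 4 and 30 dpf testis 2, with the highest oocyte sums, have the lowest levels of the testes.

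Genes of other cells moved with sex as well. Of the supporting-cell genes amh (log2 fold change -2.06, edgeR adjusted p = 0.045), dmrt1 (-1.59, adjusted p = 0.0142) and gsdf (-1.38) were higher in testes over both ages. No gene of that group was called higher in ovaries over both ages, while at 30 dpf 1 was called higher in ovaries and 3 in testes. amh was high in 30 dpf testes 2 and 3 alone, at 529.7 and 1041 CPM, while the other testes held 9.15 to 36.4 CPM and the ovaries 12.04 to 31.2 CPM. The summed level of the group was 459.0 to 1142 CPM in ovaries and 410.3 to 6667 in testes. Of the steroid-cell genes 3 of 6, with cyp11c1 (-5.74) and star (-3.86) in front, were higher in testes, at a sum of 117.8 to 244.2 CPM in ovaries and 199.1 to 2148 in testes. Of 7 stromal and vessel genes 5, among them col1a2 (-1.57) and pdgfrb (-1.49), were higher in testes and acta2 (1.44) in ovaries, at a sum of 1017 to 1736 CPM in ovaries and 1830 to 3827 in testes. Among leukocyte genes lcp1 (-0.95) and csf1ra (-0.91) were higher in testes. None of 3 blood genes was called over both ages, while at 30 dpf hbaa1 and hbaa2, globin genes, were higher in testes (-2.88 and -3.59). The level of hbaa2 was near the floor, at a median of 0.593 CPM in ovaries and 0.378 in testes, with a testis maximum of 19.8. In 30 dpf testis 1 the blood sum of 69.3 CPM lay within the ovary range of 35.5 to 152.3 CPM. The part of these cells in the sex differences of ddx4, dazl and nanos3 was not tested. Of 6 spermatid genes looked for, 4 were matched and only 2, spata18 and tekt1, had enough counts to be tested. Only spata18 was called, and it was higher in ovaries (4.92), with tekt1 at 1.61 to 11.9 CPM in ovaries and 1.95 to 12.1 in testes.

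With 25 dpf testes 1 and 2, the libraries with muscle and gut genes, both left out, the log2 fold changes over both ages stayed called for all 3 regulators, and at 25 dpf they became 0.82 for ddx4 (edgeR adjusted p = 0.0773) and 1.48 for nanos3 (adjusted p = 0.113), neither of which passes the threshold with 2 ovaries and 2 testes. With 30 dpf testes 2 and 3 left out, which leaves 1 testis of that age, the log2 fold changes over both ages stayed called, at 1.04 for ddx4, 0.66 for dazl and 3 for nanos3, and those at 30 dpf were 1.33 for ddx4 (adjusted p = 0.0189), 4.2 for nanos3 (adjusted p = 0.0105) and 0.89 for dazl (adjusted p = 0.0875), which was not called. The nanos3 ratios kept their direction in both cases, at log2 differences of 1.46 and 1.95 to ddx4 and 1.66 and 2.32 to dazl. With 25 dpf testes 1 and 2 left out both nanos3 ratios had an exact permutation p of 0.0167, the smallest these numbers of gonads allow. As only these 2 of the 6 ratio tests reached it, their adjusted p was 0.05, not under the threshold.

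The genes with the profiles most like those of the 3 regulators were named by the root-mean-square difference of centred log2(CPM + 1) over the 12 gonads, as a description. For ddx4 they were ipcef1 (0.145), stk38l (0.17) and piwil1 (0.175), and piwil1 stood at 1875 to 2877 CPM in ovaries and 1028 to 1254 in testes. For dazl they were commd4 (0.106), chrac1 (0.143) and mtx1 (0.147). For nanos3 they were fbxo5 (0.181), an inhibitor of the anaphase-promoting complex, aurka (0.217), a mitotic and meiotic kinase, and exd2 (0.247), and aurka stood at 246.6 to 846.0 CPM in ovaries and 54.6 to 105.8 in testes. These names depended on the measure. With group means in place of single gonads 0 of the 3 genes were shared for ddx4, 0 for dazl and 2 for nanos3, and with a pseudocount of 5 the shared genes numbered 2, 2 and 1. The first measure was 0.335 between ddx4 and dazl, 0.957 between ddx4 and nanos3 and 1.1 between dazl and nanos3. Of the other genes tested, 3.98% lay closer to ddx4 than dazl did, and 68.3% closer to ddx4 than nanos3 did. The share that lay closer to dazl than nanos3 did was 84.5%.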

How the data were processed

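Each of the 12 samples was a single gonad. The authors mapped reads to GRCz11 with HISAT2 2.0.5, removed duplicates with Picard and counted reads per gene with HTSeq 0.9.1 in its reverse mode, and the deposited values are whole-number counts without normalization. Strand was not testable from gene counts, so reads of an antisense partner cannot be told apart if the libraries were unstranded. Columns named big were read as ovaries and small as testes, and their numbers as the labels' replicate numbers, as the paper describes gonad size. The cDNA was amplified and no molecular identifiers are named, so reads are not independent molecules.

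edgeR 4.0.16 in R 4.3.3 was used (filterByExpr, TMM, quasi-likelihood, 4 group means, Benjamini-Hochberg over 19292 genes, threshold 0.05). Intervals are 95%. Replicates are separate gonads, and the labels do not say whether they came from separate fish, so p-values measure only the spread between these samples. Ratios used log2 of counts plus 0.5 and exact permutation tests. Profiles used a pseudocount of 1. A floor of 3 counts corresponded to 0.528 to 0.807 CPM. The methods were tested on simulated data.

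The 3 genes and the lists were chosen with earlier results of these data known. Symbols were matched through a table of gene names, in which 29201 of the 32520 IDs had a symbol. RefSeq synonyms were used only where a symbol found no ID there. The other DAZ family gene looked for, boll, is not analysed here. Named genes were the 3 regulators, nanos1, nanos2, ddx3xa, ddx3xb, the 3 most similar profiles, and the 2 largest called changes in each direction of each list over both ages; gsdf, tert, tekt1, hbaa1, hbaa2 and the uncalled nuage genes were added after their values were seen.

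Alternatives were DESeq2 1.42.0, upper-quartile factors, no filter, a minimum of 10 counts in every gonad, a replicate block, each gonad left out in turn and, chosen after seeing the data, 25 dpf testes 1 and 2, or 30 dpf testes 2 and 3, left out together.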

Additional observations from a re-analysis of the deposited data

How the results depend on the processing

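The calls of all 3 genes over both ages and at 30 dpf were kept in each of the 12 fits that left out 1 gonad and under every other alternative run, except dazl at 30 dpf with 30 dpf testes 2 and 3 left out, at 0.892 (adjusted p = 0.0875). The calls at 25 dpf were less firm. With 1 gonad left out the log2 fold change at 25 dpf was 0.601 to 0.933 for ddx4, called in 10 of 12 fits, and 1.6 to 2.05 for nanos3, called in 11 of 12. Where 1 ovary or testis of an age remained, it was assumed to vary like the other groups. With upper-quartile factors ddx4 at 25 dpf was 0.634 (adjusted p = 0.0618). The main fits did not treat same-numbered gonads as pairs. Their deviations from the group means correlated at -0.00345 on average (-0.242 to 0.139 over 15 pairs). In groups this small such an average cannot exclude a pairing or a shared batch. With the replicate block ddx4 at 25 dpf was 0.788 (adjusted p = 0.0823) and nanos3 1.83 (adjusted p = 0.0733). With 25 dpf testes 1 and 2 left out the log2 fold changes at 25 dpf were 0.822 for ddx4 and 1.48 for nanos3. Their edgeR adjusted p were 0.0773 and 0.113. The age difference of the nanos3 to ddx4 ratio turned to -0.167. The sex difference was 1.46 for the nanos3 to ddx4 ratio and 1.66 for nanos3 to dazl. Both ratios had an exact permutation adjusted p of 0.05. With 30 dpf testes 2 and 3 left out, which leaves 1 testis of that age, the sex differences of these ratios were 1.95 and 2.32. Here too their exact permutation p was the smallest that these numbers of gonads allow. In the same setting the age differences of these ratios turned to -0.204 and -0.0804, and that of ddx4 in testes to -0.17. With 25 dpf testes 1 and 2 left out the unadjusted exact permutation p of both nanos3 ratios, 0.0167, was the smallest possible. It was adjusted to 0.05, as only these 2 of the 6 ratio tests reached it. Within 1 age the sex differences of the nanos3 ratios were 1.09 and 1.39 at 25 dpf (adjusted p = 0.267) and 2.28 and 2.47 at 30 dpf (adjusted p = 0.3). In testes alone the age differences of the nanos3 ratios were -0.534 and -0.235, and in ovaries alone 0.65 and 0.847. Leaving out 1 gonad gave -0.0858 to 0.18 for ddx4 in testes by age, and -0.194 to 0.259 and -0.0104 to 0.499 for the age differences of the nanos3 ratios. The cause of these changes was not tested. The fits of 1 age or with gonads left out also held fewer gonads. Upper-quartile factors moved the median of all genes from -0.129 to -0.268 and gave 3530 genes higher in ovaries and 5057 higher in testes, where the TMM fit gave 4223 and 4108. nanos2, at 0 to 30 counts, is limited by depth.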
